A study of Drosophila melanogaster with 16 samples.

Results

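The series mapped acetylation (K27ac) and trimethylation (K27me3) on lysine 27 of histone H3 in the Drosophila eye disc. The regions described here are on the lists of both marks, at least in part. They were chosen by the overlap of 2 measured region lists: an eye K27ac region is a member when it shares at least 1 bp with an eye K27me3 domain. The rule found 218 members among 7290 K27ac regions on the main chromosome arms (2.99%, exact 95% interval 2.61 to 3.41), against 349 K27me3 domains. Members wholly within a domain numbered 167. The overlap and the count of members are therefore a description of the choice, while PC and PH in the eye disc and all 3 wing disc lists played no part in it. The wing K27me3 list is still not independent of the choice, as wing domains covered 90.2% of eye domain bases.

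ChIP-seq was done on eye and wing imaginal discs of third-instar (L3) larvae, the epithelial sacs that form the adult head with its eye and the adult wing. The groups used are eye disc K27ac, K27me3, Polycomb (PC) and Polyhomeotic (PH), and wing disc K27me3, PC and PH, with no genotype, mutation or agent given in their labels. Every group came as a single deposited sample, labelled as replicates 1 and 2 together, and for each target several immunoprecipitations were pooled (3 for K27ac, 3 to 4 for K27me3, 12 to 14 for PC or PH). With no values per replicate, no difference below could be tested against a spread between samples, and intervals on shares cover counting error only. Read depth is unknown, and the lists give each region's place with no height. Coordinates are those of the deposited lists, for which the sources used here name no genome build, so the genes at a region are not given.

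K27me3 is written by the Polycomb complex PRC2 and covers developmental genes that are kept silent. PC, a subunit of the complex PRC1, binds this mark through its chromodomain, and PH is the PRC1 subunit whose SAM domain joins PRC1 units into larger assemblies. K27ac, written in flies by the acetyltransferase Nejire (the fly CBP), marks active promoters and enhancers. A single lysine can carry only the one mark or the other. A disc holds many cell types, so regions on both lists may have the marks in different cells, on different alleles or on different nucleosomes, and in whole discs these cannot be told apart.

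Within K27me3 domains K27ac was sparse. It covered 6.35% of the 9228599 bases in domains and 22.9% of the 110993232 bases outside them. Of the 349 domains, 84 held a member (24.1%, exact 95% interval 19.7 to 28.9) and 265 held none. Bases on both lists, called bases with both marks below, came to 585687, or 15.2% of the length of the 84 domains with a member. As the lists have no height, overlap does not show how much of either mark a base has.

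Domains with a member had the larger median width, as the plot of members per domain shows. It was 30701 bp, against 3001 bp for the domains without. The share of domains holding a member was 6.31% of 111 domains under 2 kb, 18.8% of 69 from 2 to 10 kb, 27% of 37 from 10 to 20 kb, 35.2% of 71 from 20 to 50 kb and 47.5% of 61 at 50 kb and over. A wider domain offers more bases to overlap, and the share of bases under K27ac did not follow the same order: it was 4.42%, 11.0%, 4.26%, 8.17% and 5.61% in these 5 classes. The widest domain, 3R:2649701-2891451 (241751 bp, 19 PC and 17 PH regions), and the next, 3R:12588001-12813951 (225951 bp, 26 PC and 32 PH regions), held no K27ac region at all. The domains 2L:11318001-11495951, 3L:20551001-20721451 and 2L:5371901-5518451, of 177951, 170451 and 146551 bp, held none as well, with 4, 4 and 18 PC regions. Also among the 5 widest, 2L:21796001-21980451 (184451 bp) held 5 members and 3L:12553501-12724451 (170951 bp) held 18.

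**Figure D1:**
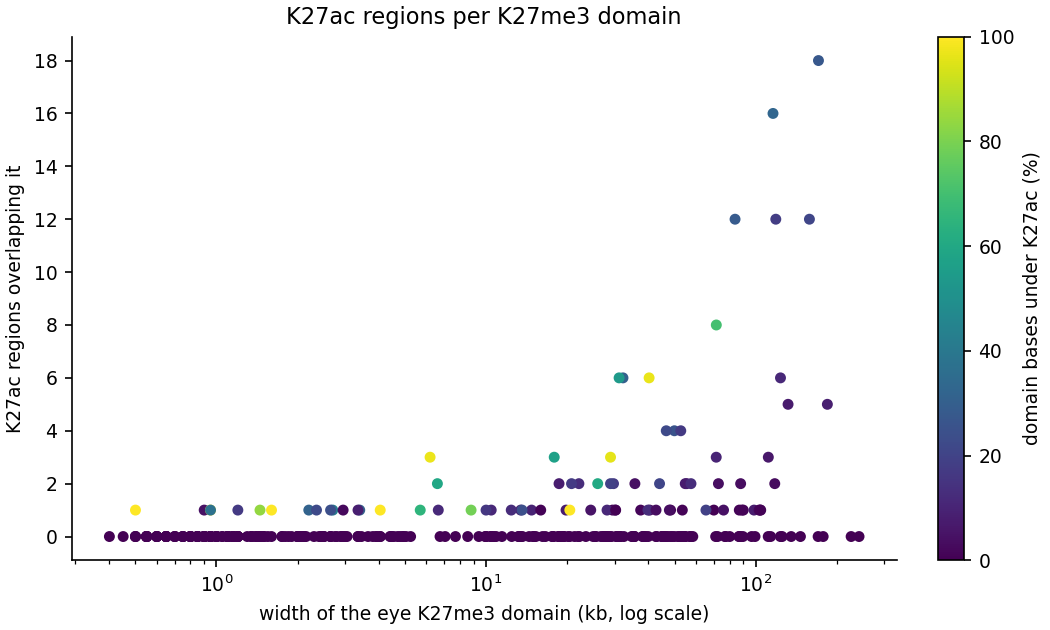
Each point is 1 of the 349 eye K27me3 domains, with its width in kb on a log axis, the number of K27ac regions that overlap it on the vertical axis and the share of its bases under K27ac as colour. Most points lie at 0, including the widest domain and the next, and 5 domains reach 12 or more.

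Members were gathered in few domains. A single member was found in 49 domains, 2 members in 15, and 3 or more in 20. The 5 domains with most members held 70 of the 218 (32.1%) on 7.02% of all domain bases, and the 20 domains with 3 or more held 139 (63.8%) on 17.9% of the bases. Arm X held 74 members (33.9%) on 17.7% of domain bases, 2L 42, 2R 36, 3L 32, 3R 32 and the small chromosome 4 had 2. As a share of each arm's K27ac regions, members were 4.52% on X (exact 95% interval 3.57 to 5.64), 3.59% on 2L, 2.71% on 2R, 2.12% on 3L, 2.06% on 3R (1.41 to 2.89) and 2.11% of 95 on chromosome 4. These intervals take members as independent, which neighbours in 1 domain are not. On X, the domains X:16000501-16116451, X:4268701-4426951 and X:17200201-17318951 held 16, 12 and 12 of the 74 members. By domains, 21 of 99 on X held a member, against 24.1% of all domains. Without arm X 144 members were left. Domains on 3R were the largest in sum, 26.7% of domain bases, and had 3.96% of them under K27ac, against 10.7% on X, 9.23% on 2R and 13.1% of the few domain bases on chromosome 4.

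The 8 domains with most members are lettered A to H in the map of their features. Domain A (3L:12553501-12724451, 170951 bp) held 18 members, each wholly inside, on 27.2% of its bases, with 18 PC and 14 PH regions. Domain B (X:16000501-16116451, 115951 bp) held 16, on 32.6% of its bases. Domains C (X:4268701-4426951), D (X:17200201-17318951) and E (2L:16406101-16489951) held 12 members each, on 20.7%, 17.9% and 28.2% of their bases. In these 5 the K27ac lay in separate blocks, and the longest stretch free of it was 29101 bp in A and 59877 bp in C, with the others between.

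Domains F and H looked otherwise. Domain F (2R:20685501-20756951, 71451 bp) held 8 members on 70.0% of its bases, and domain H (X:5889201-5929451, 40251 bp) held 6 on 96.5%, with no free stretch over 1019 bp. Domain G (3R:9666351-9789951, 123601 bp) stood at the other end, with 6 members on 11.3% of its bases beside 19 PC and 18 PH regions. Among domains of 10 kb or more, the highest cover was at 3R:18954001-18974451, of which 20449 of 20451 bp lay under 1 K27ac region with 3 PC and 7 PH regions. The domain 2L:6528001-6556951 followed domain H with 95.9%. Together with domain F and 2R:3296501-3322451 (60.5%) these were the 5 highest.

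**Figure D2:**
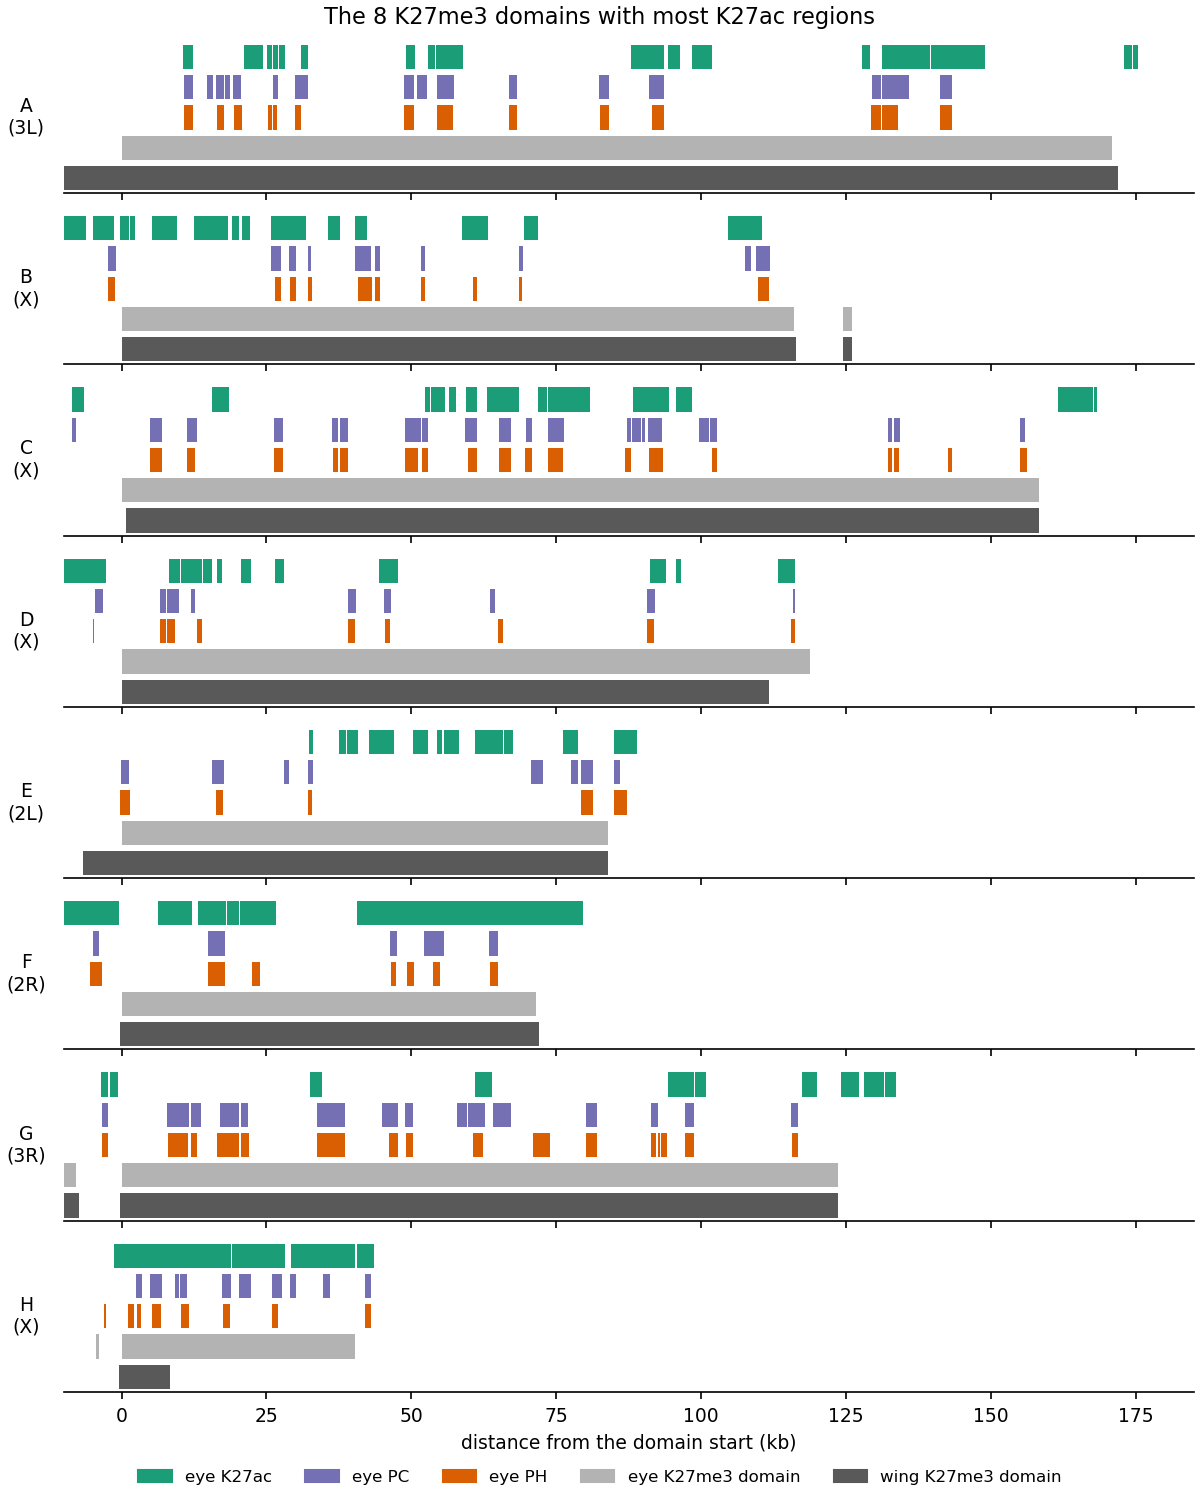
Maps of domains A to H, with the chromosome arm in parentheses, from 10 kb before to 10 kb after each domain, as distance from the domain start in kb. Bars are the regions of each list: K27ac blocks are spread along the grey domain bar in A to E and cover most of it in F and H, and the wing domain reaches over the whole or nearly the whole eye domain except in H.

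Most members lay in the interior of a domain. Of the 218, 167 were wholly inside (76.6%, exact 95% interval 70.4 to 82.1), 47 crossed 1 domain end (21.6%) and 4 were wider than a whole domain that they contained (1.83%). No member touched more than 1 domain. The members crossing an end had a median of 26.0% of their width in the domain. Of the 698 domain ends, 55 lay under K27ac (7.88%, exact 95% interval 5.99 to 10.1). This lay between the 6.35% of all domain bases and the 20.0% of bases in the last 2 kb outside domains. The inside members stood at a median of 15790 bp from the nearer end (quartiles 6773 and 31604, range 66 to 85862 bp).

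Inside members were set against the share of domain bases at the same distance. The outer 5 kb at each end make up 22.4% of domain bases and held 26 of 167 inside members (15.6%), and the outer 10 kb make up 38.7% of bases and held 59 (35.3%). A region must lie with its full width in the domain to count as inside, which lowers the number next to an end. The profile of bases across the ends avoids this: K27ac covered 25.7% of bases 2 to 4 kb outside a domain, 20.0% in the last 2 kb outside, 6.78% in the first 2 kb inside and 5.90% at 2 to 4 kb inside. Further in it stayed between 5.32% and 8.60% in each 2 kb step up to 30 kb. PC cover ran the other way and over a longer stretch, with 3.45% at 2 to 4 kb outside, 7.33% in the last 2 kb outside, 9.58% in the first 2 kb inside and 18.1% at 6 to 8 kb. PH cover was 6.10%, 9.34%, 7.76% and 13.6% at the same distances, and so was lower just inside the end than just outside it. Steps further in hold only the wider domains, with 1003855 bases at 0 to 2 kb inside and 611814 at 6 to 8 kb. Distance from the end and domain width are thus mixed in these values.

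**Figure D3:**
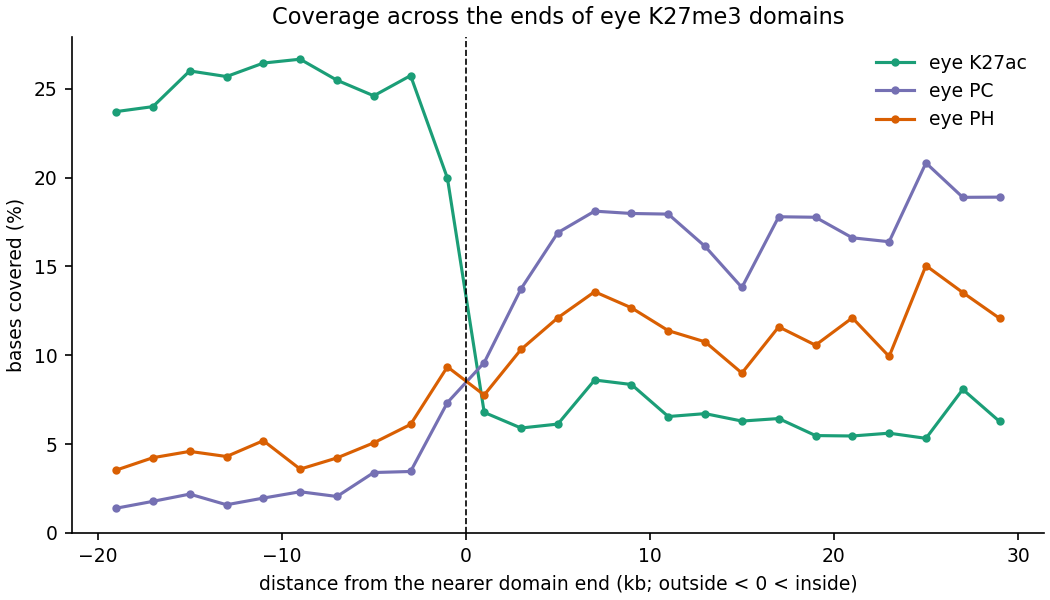
Percent of bases covered by eye K27ac, PC and PH in 2 kb steps from an eye K27me3 domain end. Distance is negative outside, from any end, and positive inside, from the nearer end. K27ac is at 25.7% at 2 to 4 kb outside and at 6.78% in the first 2 kb inside, and PC is at 18.1% at 6 to 8 kb inside.

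Of the 5 members deepest in a domain, 4 lay in domains A and C. The other one, 2L:21881863-21882651 (789 bp), lay 85862 bp from the nearer end of a domain of 184451 bp, with neither PC nor PH, the nearest PC region being 129 bp away. In domain A, 3L:12641480-12643924, 3L:12643933-12647077 and 3L:12647752-12649877 lay 80527, 77374 and 74574 bp from the nearer end. They form a row in which the middle region had 1 PC and 1 PH region and its neighbours had none. In domain C, X:4345892-4349553 (3662 bp) lay 77191 bp deep, also without either protein.

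Members were a little narrower than other K27ac regions, with a median of 2449 bp (quartiles 1431 and 3922) against 2685 bp (1591 and 4524). Inside members had a median of 2237 bp, those crossing an end 3852 bp and the 4 that contained a domain 11340 bp (range 4360 to 14328). A wider region reaches an end more easily and must exceed a domain to contain it. Part of this order therefore follows from how the classes are defined. The widest members crossed an end or nearly reached it. They were 2L:6532897-6558927 (26031 bp, 92.4% in its domain), 3R:18954003-18975071 (21069 bp, 97.1%), 2R:20745064-20763439 (18376 bp, 64.7%) and 2R:3307783-3322359 (14577 bp, inside but 92 bp from an end). The fifth, 3R:20995629-21009956 (14328 bp), contained a domain of only 501 bp. All 5 overlapped both PC and PH.

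At the threshold of the rule, 3R:4126947-4130021 shared 5 bp with a domain, 2L:1973946-1975214 shared 6 bp and X:3864362-3866132 shared 40 bp. The nearest regions left out lay 21 bp (3R:4140679-4142479), 46 bp (2L:9573509-9576954), 47 bp (2R:15984198-15986803), 50 bp (X:15517257-15518550) and 65 bp (2R:3328017-3333511) from a domain. Members with the smallest overlap also include 2L:16482211-16482211 and 2L:16439194-16439203, of 1 and 10 bp, which lie inside domain E. Only 4 members were under 200 bp. Neighbouring members of 1 domain were 1012 bp apart at the median, and 45 of the 134 gaps were under 200 bp, so members of 1 domain are not independent of each other.

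About as many members carried PC or PH as carried neither. PC overlapped 96 of 218 members (44.0%, exact 95% interval 37.3 to 50.9), against 15.9% of all K27ac regions and 15.0% of the 7072 outside domains (14.2 to 15.8). PH overlapped 104 members (47.7%, 40.9 to 54.6), against 25.8% of all K27ac regions and 25.2% of those outside (24.2 to 26.2). Both proteins were on 89 members (40.8%, 34.2 to 47.7), against 13.1% of all K27ac regions. The remaining members split into 7 with PC alone (3.21%), 15 with PH alone (6.88%) and 107 with neither (49.1%, 42.3 to 55.9), where the regions outside had 72.1% with neither. K27ac regions outside domains but within 5 kb of one lay between, with PC on 29.5% and PH on 38.6% of 298.

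Most PH on members came with PC. PH was present without PC on 15 of 104 PH-bound members (14.4%, exact 95% interval 8.30 to 22.7), and on 916 of the 1780 PH-bound regions outside domains (51.5%, 49.1 to 53.8). Where PC was present PH was mostly present too, on 89 of 96 members (92.7%, 85.6 to 97.0) and on 864 of 1060 other regions (81.5%, 79.0 to 83.8). Inside members and those crossing an end had PC on 43.1% and 46.8% and PH on 45.5% and 53.2%, with intervals that overlap. These shares are not like for like, as an overlap counts anywhere on a region. Those crossing an end were wider (median 3852 against 2237 bp), with a median of 26.0% of their width in the domain. Their PC or PH can lie outside it. For example, 2L:2491513-2494121 had both proteins, but neither on its bases within the domain.

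Wide regions overlap more sites, so the shares were read within 4 classes of width, cut at the quartiles of all K27ac regions (1588, 2677 and 4501 bp). PC overlapped 30.8%, 45.3%, 46.6% and 59.5% of members from the narrowest to the widest class, and 10.1%, 13.1%, 15.2% and 21.4% of regions outside domains. PH overlapped 30.8%, 49.1%, 51.7% and 66.7% of members and 18.4%, 20.7%, 26.1% and 35.4% of the others. In each class the lower bound for members was above the upper bound for others for PC, while for PH the bounds of the narrowest class met (19.9 for members and 20.3 for others). The bounds take regions as independent, which neighbours are not, so their separation is no test of a difference.

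**Figure D4:**
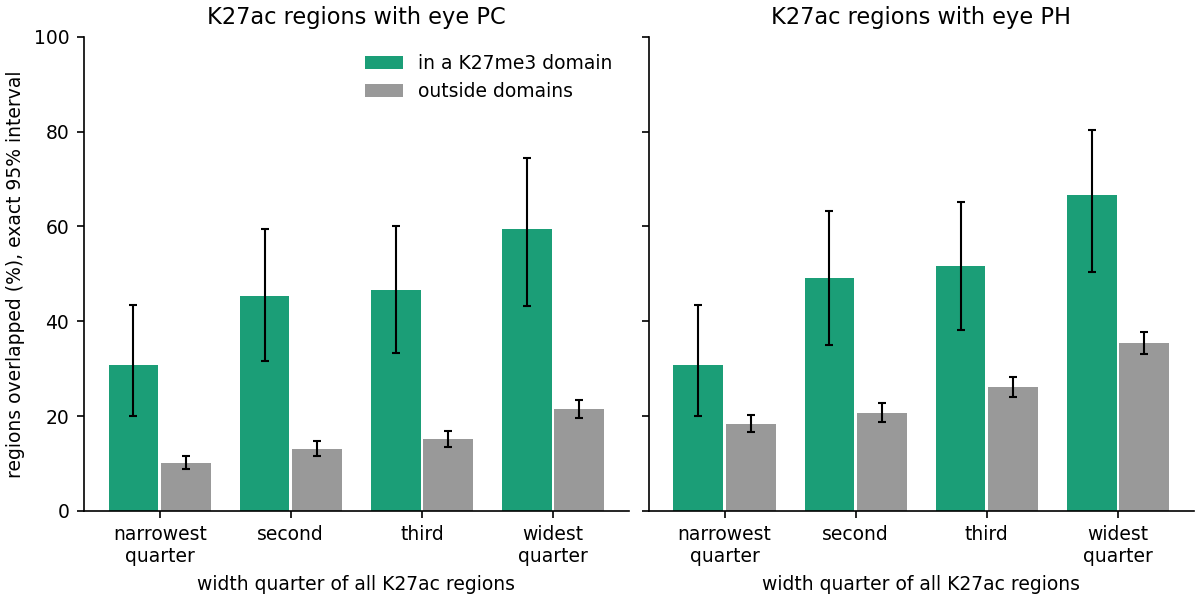
Percent of K27ac regions that overlap eye PC (left) or eye PH (right) by at least 1 bp, in 4 width classes of all K27ac regions, for members (green) and regions outside domains (grey). Bars start at 0, and lines are exact 95% intervals, which cover counting error only. Green bars are higher in each class, from 30.8% to 59.5% for PC.

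Domains are rich in PC whether or not K27ac is present, so K27ac bases were also set against the rest of the same domains. Eye PC covered 32.6% of bases with both marks and 18.5% of the bases without K27ac in the 84 domains that have a member. Over all domains the bases with K27me3 alone had 15.1%, bases with K27ac alone 4.93% and bases with neither mark 0.305%. PH covered 23.6% of bases with both marks and 12.4% of the other bases in the same domains. It covered 10.5% of bases with K27me3 alone over all domains, 11.5% of K27ac bases outside and 0.906% of bases with neither mark. Members that crossed an end or contained a domain had PC on 36.7% of their bases within the domain and on 17.8% of those outside it, and PH on 29.1% and 22.8%.

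**Figure D5:**
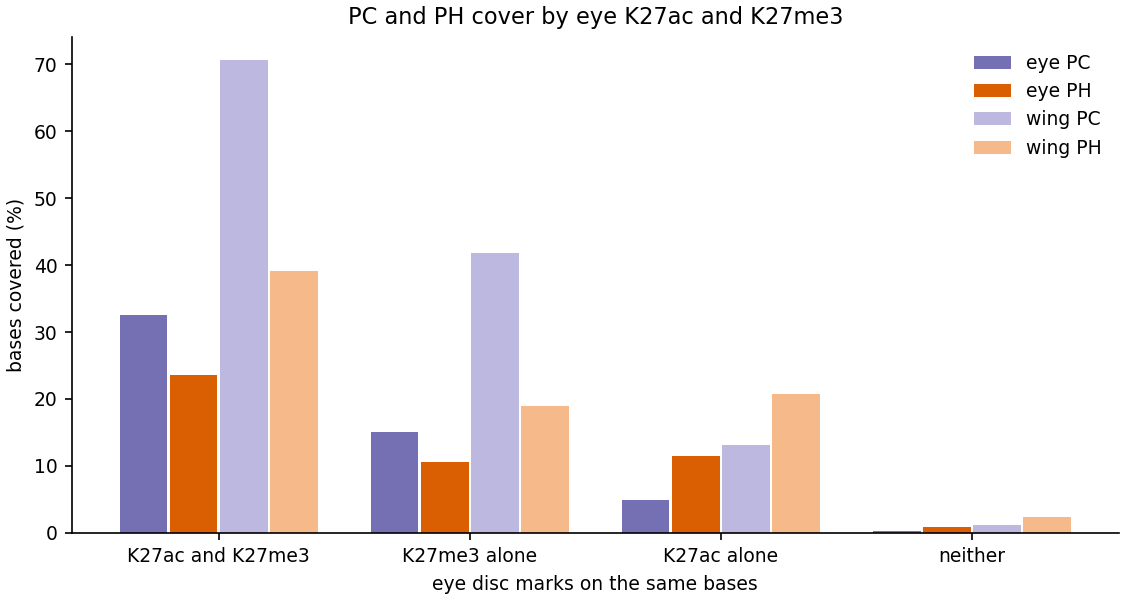
Percent of bases covered by PC and PH regions of the eye and wing disc on 4 kinds of eye chromatin: with both marks, with K27me3 alone, with K27ac alone and with neither. Bars start at 0 and have no error, as each list is 1 sample. Bases with both marks have the highest bar of each list, 32.6% for eye PC and 70.6% for wing PC.

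The difference within domains was not shared by all of them. Of 59 domains with at least 1000 bp under K27ac and 1000 bp free of it, PC cover was higher on the K27ac bases in 35, lower in 17 and 0 on both in 7. PH cover was higher in 38, lower in 18 and 0 on both in 3. Domain A had PC on 36.9% of K27ac bases and 10.2% of the others, domain C on 36.5% and 14.8%, domain B on 17.9% and 6.62%, and domain D on 21.2% and 4.23%. In domain F each PC and PH base of the domain lay under K27ac (18.1% and 17.4% of K27ac bases, 0 of the others). In domain E it was turned, with PC on 8.76% of K27ac bases and 13.8% of the others and PH on 2.59% and 8.06%. Of its 12 members 10 had neither protein, among them the entries of 1 and 10 bp, which are too narrow to overlap much. Domain G was nearly even, with PC at 29.1% and 25.8%.

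Seen from the binding sites, K27ac lay on few of those in domains. Of 774 eye PC regions that overlap a domain, 121 also overlapped K27ac (15.6%, exact 95% interval 13.1 to 18.4), while 1091 of the 1253 PC regions outside domains did (87.1%, 85.1 to 88.9). For PH it was 119 of 790 in domains (15.1%, 12.6 to 17.8) and 1987 of 2580 outside (77.0%, 75.3 to 78.6). PC regions in domains were wider than those outside, with a median of 1634 against 1027 bp, and those in domains with K27ac had 1869 bp. So K27ac was more frequent on the bound bases of domains than on their other bases, while most bound sites there had no listed K27ac.

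Members with both proteins were wider at the median than members with neither, at close median depths in the domain. The 89 with both had a median of 2880 bp and the 107 with neither 2135 bp, at medians of 15790 and 16160 bp from the nearer end for those wholly inside. The widest inside members with both proteins were 2R:3307783-3322359, 3R:678346-691024 (12679 bp, 3 PC and 2 PH regions), 2R:20726073-20737483 (11411 bp, in domain F), X:5898068-5908132 and X:5908288-5917429 (10065 and 9142 bp, in domain H). Members with neither lay at a median of 3552 bp from the nearest PC region and 3181 bp from the nearest PH region. The widest of them inside a domain was 2R:18193138-18200675 (7538 bp), 29589 bp from PC. In domain A, the wide unbound region 3L:12696751-12702448 (5698 bp) was 46 bp from PC, so missing overlap does not always mean distance.

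The wing disc lists had no part in the choice of members, but wing K27me3 domains lie largely on the same bases as eye domains. A wing K27me3 domain overlapped 196 of the 218 members (89.9%, exact 95% interval 85.1 to 93.6), against 4.13% of all eye K27ac regions and 1.48% of those outside eye domains. Wing domains covered 90.2% of all eye domain bases and 1.60% of the bases outside them. The contrast of 89.9% with 1.48% therefore largely restates the choice of members by eye domains. Within domains with a member, wing domains covered 93.5% of the bases free of K27ac and 86.3% of the bases with both marks. Wing disc K27ac was not analysed here.

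The 22 members with no wing domain had a median width of 3543 bp, against 2357 bp for the 196 with one, and had PC on 10 and PH on 9 of them. The widest were X:5898068-5908132 and X:5908288-5917429 in domain H, of which 20.6% lies in a wing domain, against 94.1% to 100% for domains A to G. They were followed by 2L:632380-640078 (7699 bp, 7.43% in its eye domain), X:5922104-5929485 (7382 bp, domain H) and 3L:1674005-1680576 (6572 bp, with neither protein in either disc). Domain H held PC and PH in the wing all the same, with 9 wing PC and 10 wing PH regions.

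Wing PC overlapped 163 members (74.8%, exact 95% interval 68.5 to 80.4), against 27.4% of all eye K27ac regions, and wing PH overlapped 129 (59.2%, 52.3 to 65.8), against 38.7%. The wing lists are longer than the eye lists, with 3716 against 2027 PC regions and 5062 against 3370 PH regions, so a higher share in the wing is no measure of stronger binding there. Per member, PC was on 89 in both discs, on 7 in the eye alone, on 74 in the wing alone and on 48 in neither. Of the 7072 K27ac regions outside domains, PC was on 831 in both discs, on 229 in the eye alone, on 1000 in the wing alone and on 5012 in neither. PC in the eye alone thus made up 3.21% of members and 3.24% of the others, while PC in the wing alone made up 33.9% and 14.1%. On members, PH was on 94 in both, on 10 in the eye alone, on 35 in the wing alone and on 79 in neither, and on the other regions these counts were 1599, 181, 1091 and 4201. PH in the wing alone made up 16.1% of members and 15.4% of the others, and PH in both discs 43.1% and 22.6%. Of the 107 members with neither protein in the eye disc, 61 had wing PC (57.0%, 47.1 to 66.5) and 31 had wing PH (29.0%, 20.6 to 38.5). Of the 5096 regions outside domains with neither protein in the eye disc, 11.8% had wing PC and 19.2% had wing PH. In bases, wing PC covered 70.6% of those with both eye marks and 45.4% of those without K27ac in the same domains, and wing PH 39.1% and 19.7%. Of the 59 domains with 1000 bp of each kind, wing PC was higher on the K27ac bases in 40 and lower in 16, domain E again among the lower (34.8% and 44.7%).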

How the data were processed

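Region lists of 7 ChIP-seq samples were used as deposited (chromosome arm, start and end, with no header or score). Per the submitters' processing notes the tools were CASAVA 1.8.2 and SICER, and per the labels' protocols chromatin was fixed for 15 min in 1.8% formaldehyde. No source used here gives the thresholds or the genome build of the lists. Starts were read as 0-based and are printed 1-based. K27me3 domains start on a 50 bp grid, so their ends are no finer than that step, and how accurate the ends are is not known. After other arms and entries of width 0 were dropped, 7290 of 7300 K27ac regions lay on the 6 main arms (2L, 2R, 3L, 3R, 4, X). An arm's length was the largest region end in any list. No annotation or genome of the lists' build was used, so no gene is named, no sequence is shown, and the RNA-seq tables were not used.

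Overlap needed 1 bp. Shares have exact Clopper-Pearson 95% intervals (counting error only, and neighbouring regions are not independent). No test was made, as each group is 1 sample. Members and measures were chosen with earlier results of these data known. Regions were named by rule: the 5 widest members, the 5 deepest, the 5 widest inside with both proteins, the 5 at either side of the threshold, the 5 widest domains and the 5 with most members. Domains F to H, the widest domains without members, the domains with highest cover, the widest members without a wing domain or without PC and PH, and further single members were added after their values were seen. Python 3.11.15, numpy 2.4.6, pandas 2.3.3, scipy 1.17.1 and matplotlib 3.10.9 were used, and the overlap code was tested on simulated intervals.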

Additional observations from a re-analysis of the deposited data

How the results depend on the processing

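Of 195 values under alternatives, 160 stayed within the main value's interval (for the member count and the bases under K27ac, within 1.5 times) and 35 moved. Under all 18 settings members had PC and PH more often than other K27ac regions (PC 39.4% to 62.4% against 13.6% to 20.2%, PH 41.7% to 63.8% against 22.8% to 32.9%). With K27ac regions at or above the median width, there were 100 members, in 17.2% of domains, 62% wholly inside, 85% in a wing domain, with PC on 52%, PH on 58%, both on 50% and wing PH on 71%, and others had PC on 18.3% and PH on 30.8%. With at least 50% of a region, or its centre, required in a domain, 16.0% or 16.3% of domains held a member and 91.8% or 91.3% of members were wholly inside. With domains at or above the median width, 37.1% held a member and 83.2% of members were inside. With PC or PH within 1 kb, shares of members were 62.4% (PC), 63.8% (PH), 57.3% (both), 84.9% (wing PC) and 72.9% (wing PH), and of others 20.2% and 32.9%. With 50% of the PC or PH region required, they were 33.5% (both), 52.3% (wing PC) and 45.4% (wing PH), and of others 13.6% (PC) and 22.8% (PH). Without arm X there were 144 members, and others had PC on 13.8% and PH on 24.1%. Chosen after seeing the data, K27ac regions closer than 200 bp joined gave others with PC on 18.7% and PH on 30.1%, leaving out the 5 domains with most members gave 66.2% inside, and leaving out domains under 2 kb gave 32.4% of domains with a member. Width minimums and stricter overlap lower counts by construction, and the cause of the other moves was not tested. No paired analysis was possible because each group is 1 sample with no values per replicate.

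Read depth and region height are unknown, so a region missing from a list is not shown to lack the mark or protein, and lists of different length are not compared in level.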

Other observations

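K27ac regions outside eye domains also met wing domains. Of 7072 such regions, 105 overlapped a wing K27me3 domain, and 47 of them lay wholly inside one. PC overlapped 30 of the 105 in the eye disc (28.6%, exact 95% interval 20.2 to 38.2) and 54 in the wing disc (51.4%, 41.5 to 61.3). PH overlapped 43 in the eye disc (41.0%, 31.5 to 51.0) and 63 in the wing disc (60%, 50.0 to 69.4). Their median width was 3679 bp, against 2677 bp for all eye K27ac regions. These shares lay above those of all eye K27ac regions (15.9% and 25.8% in the eye disc, 27.4% and 38.7% in the wing disc). For eye PC the share lay below the 44.0% of the regions that overlap an eye domain. The 105 regions were wider and were chosen by wing K27me3, and neither was matched in these comparisons.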
